A study of Mus musculus with 8 samples.

Results

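Transcripts of 41 genes that type I or type II interferon induces were followed in mouse liver under 2 adenoviral hairpins. The genes were chosen by name, as common members of the interferon response outside the major histocompatibility complex. The choice was made with earlier results of these data known. Their counts beside the shares over all genes therefore only describe these libraries. All 41 were among the 24062 gene entries of the count tables, and all 41 passed the filter on low counts that left 13767 genes to test. Counts of the members ran from 31, for Oas2 in shDnajb9 replicate 1, to 10747 per library.

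RNA-seq of ribosomal RNA-depleted liver RNA was done in 8 libraries, 2 in each group. Livers labelled shDnajb9 came from C57BL/6 mice of 3 months that received an adenovirus for knockdown of Dnajb9, which encodes a co-chaperone of the endoplasmic reticulum. Their controls, labelled lacZ1, were of the same strain and age and received the lacZ control virus. Livers labelled shRictor came from C57BL/6 mice of 4 months with an adenovirus for knockdown of Rictor, a defining subunit of mTOR complex 2, and their controls, labelled lacZ2, were of that age. All 4 groups were lean and wild type in their germline, carried 0.1 OD of adenovirus for 1 week and were without food for 6 h before death, so no group was free of virus. The labels do not name a promoter for the hairpins, and an adenovirus given in vivo can enter liver cells of more than 1 type. Nothing in them states that each library is a different animal. P-values here measure only how far these libraries spread, and that spread may be technical. The series places both hairpins in the study of nutrient sensing by mTOR complex 2, and each was set here against its own lacZ group.

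Type I interferon acts through Ifnar1 and Ifnar2, the kinases Jak1 and Tyk2, and a complex that includes Stat2 and Irf9 and binds interferon-stimulated response elements. Type II interferon acts through Ifngr1 and Ifngr2 on genes with gamma-activated sites (GAS), and through Irf1. Most cells of the liver, hepatocytes included, can respond, and viral nucleic acid sensed inside the cell is a classical trigger of the type I arm.

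The promoters of 6 members are shown: 5 that were higher in shDnajb9 and 1, Igtp, that was lower. All 6 hold the element marked below, which some other members higher in shDnajb9 do not. Each line holds the 250 bases before the annotated start of transcription, 5′ to 3′ along the gene's own strand, from RefSeq on GRCm38.p6 (mm10). Capitals mark every match to GAAANNGAA on either strand, the core spacing of an interferon regulatory factor (IRF) element.
Ifit1 chr19:34640639-34640888 (plus strand): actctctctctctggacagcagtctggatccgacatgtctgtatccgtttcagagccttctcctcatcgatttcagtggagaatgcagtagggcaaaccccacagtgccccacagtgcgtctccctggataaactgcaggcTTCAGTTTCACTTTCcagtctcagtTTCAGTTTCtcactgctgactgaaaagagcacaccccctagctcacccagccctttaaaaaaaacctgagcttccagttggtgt
Ifit3 chr19:34583279-34583528 (plus strand): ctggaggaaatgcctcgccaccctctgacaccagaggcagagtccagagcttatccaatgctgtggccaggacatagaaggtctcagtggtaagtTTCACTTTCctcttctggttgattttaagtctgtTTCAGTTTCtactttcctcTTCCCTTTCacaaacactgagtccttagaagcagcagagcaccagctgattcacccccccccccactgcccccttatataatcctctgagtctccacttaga
Isg15 chr4:156200819-156201068 (minus strand): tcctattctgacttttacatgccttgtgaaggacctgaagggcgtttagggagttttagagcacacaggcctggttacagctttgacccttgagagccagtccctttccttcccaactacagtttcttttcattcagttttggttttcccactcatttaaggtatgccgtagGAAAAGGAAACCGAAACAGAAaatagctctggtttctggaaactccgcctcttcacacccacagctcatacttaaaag
Oas1g chr5:120887614-120887863 (minus strand): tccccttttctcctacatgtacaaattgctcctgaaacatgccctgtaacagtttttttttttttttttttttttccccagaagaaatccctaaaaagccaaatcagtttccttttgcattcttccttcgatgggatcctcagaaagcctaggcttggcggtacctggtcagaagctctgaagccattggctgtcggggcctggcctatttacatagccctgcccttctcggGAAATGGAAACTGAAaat
Bst2 chr8:71537473-71537722 (minus strand): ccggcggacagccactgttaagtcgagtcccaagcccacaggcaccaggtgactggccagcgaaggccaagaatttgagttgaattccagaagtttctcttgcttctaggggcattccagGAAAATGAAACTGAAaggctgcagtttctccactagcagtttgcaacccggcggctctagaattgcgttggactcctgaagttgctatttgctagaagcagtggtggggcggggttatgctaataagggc
Igtp chr11:58199306-58199555 (plus strand): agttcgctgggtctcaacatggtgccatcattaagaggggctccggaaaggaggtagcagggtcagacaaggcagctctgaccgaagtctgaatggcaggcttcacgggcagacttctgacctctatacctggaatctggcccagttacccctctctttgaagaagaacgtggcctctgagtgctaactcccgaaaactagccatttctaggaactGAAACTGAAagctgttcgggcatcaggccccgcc

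Ifit1 and Ifit3 carried 3 matches each on the opposite strand, so that the lines above show the reverse complement. Isg15 carried 3 matches in an overlapping row, and Oas1g and Bst2 carried 2 overlapping matches each. Igtp carried 1 match, 34 to 26 bases before the start. A GAS-type match, TTCNNNGAA, lay upstream of it in Igtp at 45 to 37 bases, and in Bst2 at 136 to 128 bases, where it overlapped the first IRF-type match; the GAS matches are not in capitals.

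RefSeq promoters were at hand for 31 of the 41 members. The IRF-type letters stood in 16 of these 31 genes, or 51.6%, and in 8.18% of all 27025 genes of the table. The GAS-type letters stood in 7 of 31 members, or 22.6%, and in 8.13% of all genes. Both patterns were searched on both strands, TTCNNNGAA reads the same on either, and the patterns may overlap each other. Among the members higher in shDnajb9, 12 had a promoter in the table. Of these, 7 held an IRF-type match, namely Ifit1, Ifit3, Oas1a, Oas1g, Rsad2, Isg15 and Bst2. Irf7, Ifit2, Herc6, Ifi44 and Ifi35 held none. Among the 24 members not called in that contrast, 18 had a promoter and 8 held a match, among them Oas3, Gbp2, Gbp3 and Irgm1. A match describes letters and not a bound site.

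**Figure D1:**
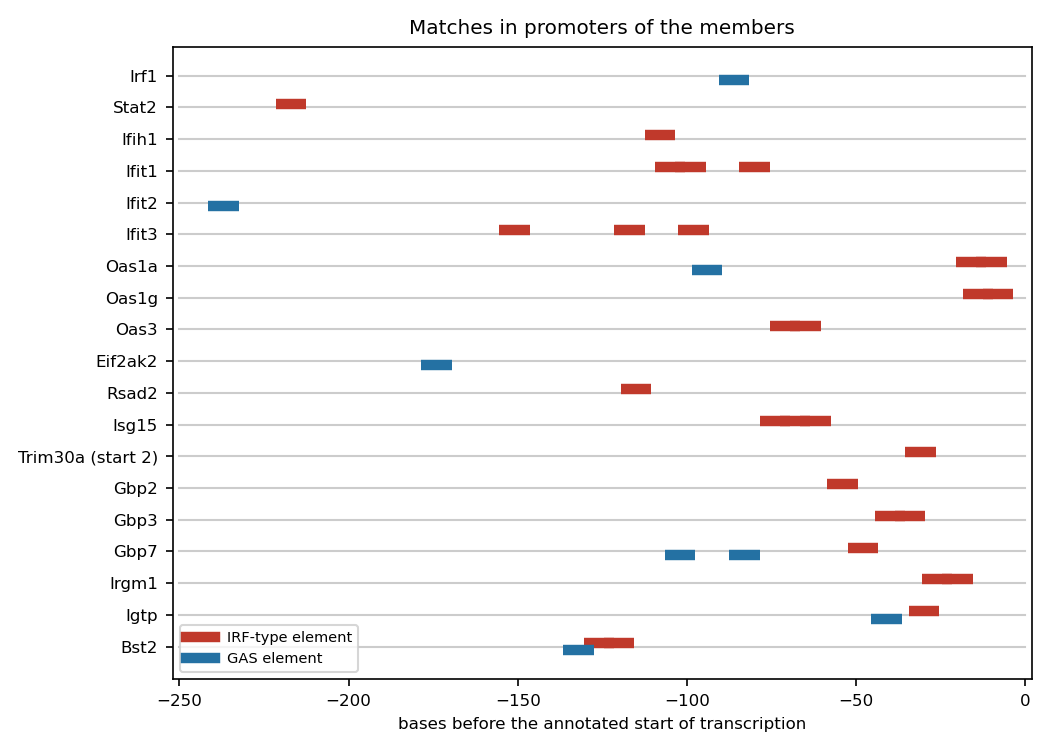
Positions of IRF-type (red) and GAS-type (blue) matches in the 250 bases before the annotated start, for every member promoter with a match; the x axis is the distance in bases from the start of transcription. The matches of Ifit1 and Ifit3 lie 76 to 155 bases upstream, those of Oas1g within 18 bases of the start.

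Several members are neighbours. Ifit2 (34550694 to 34576419), Ifit3 (34583531 to 34588731) and Ifit1 (34640871 to 34650009) lie in a row on the plus strand of chromosome 19. Oas2 (120730333 to 120749853), Oas3 (120753098 to 120777661), Oas1g (120876142 to 120887613) and Oas1a (120896256 to 120907521) lie on the minus strand of chromosome 5. Mx1 (97447035 to 97462907, minus strand) and Mx2 (97535308 to 97560900, plus strand) lie on chromosome 16, and Rsad2 and Cmpk2 lie next to each other on chromosome 12. Positions are those of GENCODE M21 on mm10.

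Counts assigned to genes were between 6426164 and 11383532 per library. The class of HTSeq counts without a unique alignment made up 41.3% and 42.0% of all counts in shDnajb9, 22.9% and 24.9% in lacZ1, 32.7% and 26.7% in shRictor and 24.6% and 24.2% in lacZ2. Neither targeted transcript passed the test in its own contrast. Dnajb9 had 22.0 and 20.3 CPM in shDnajb9 and 30.6 and 38.0 CPM in lacZ1 (adjusted p = 0.056, edgeR). Rictor had 40.1 and 42.0 CPM in shRictor and 52.3 and 65.2 CPM in lacZ2 (adjusted p = 0.231, edgeR). The group names below therefore stand for the virus given. CPM is the count of a gene scaled to a common library size with TMM, and a gene was called at an adjusted p under 0.05 (edgeR quasi-likelihood test, Benjamini-Hochberg over all 13767 genes).

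Of the 41 interferon-induced genes, 16 were called higher in shDnajb9 than in lacZ1, 1 lower and 24 neither, where 11.6% of all genes tested were called higher and 12.6% lower. The 16 were Irf7, Usp18, Dhx58, Ifit1, Ifit2, Ifit3, Oas1a, Oas1g, Rsad2, Isg15, Herc6, Mx2, Bst2, Rtp4, Ifi44 and Ifi35, and the 1 lower was Igtp. The median log2 fold change was 0.46 over the members and -0.05 over all genes tested. Both shDnajb9 libraries lay above both lacZ1 libraries in 25 of 41 members, against 32.4% of all genes, and below both in 4, against 35.1%. Scaled by total count only, 6 members were called higher (Irf7, Ifit1, Ifit3, Rsad2, Isg15 and Bst2) and 2 lower (Irf1 and Igtp), against 4.43% and 24.4% of all genes. The calls of Usp18, Dhx58, Ifit2, Oas1a, Oas1g, Herc6, Mx2, Rtp4, Ifi44 and Ifi35 were lost with it. That scaling moved the median of all genes to -0.46 and that of the members to 0.02, with 21 of 41 positive. The number of members called higher depended on which library was left out, and so did that of all genes. Without 1 library of shDnajb9 or lacZ1 the median log2 fold change was between 0.44 and 0.58 over the members. Over all genes it was between -0.06 and -0.03. Ifit1, Ifit3 and Isg15 kept their call in each of the 17 alternatives run.

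In shRictor the same genes leaned the other way with few calls. Of the 41 members, 0 were called higher and 4 lower, namely Zbp1, Ifit2, Oas1g and Mx1, where 7.31% of all genes were called higher and 10.9% lower. The count called lower was therefore near the background; at an unadjusted p under 0.05, 0 members were higher and 15 lower, against 13.9% and 17.7% of all genes. DESeq2 called 0 higher and 4 lower, against 8.28% and 9.46% of all genes. The median log2 fold change was -0.39 over the members and -0.02 over all genes tested. In 18 members the shRictor pair lay wholly below the lacZ2 pair, against 31.6% of all genes, and in 3 wholly above it, against 28.8%. The number of members called lower also depended on which library was left out, as did that of all genes. Without 1 library of shRictor or lacZ2 the median was between -0.50 and -0.22 over the members. Over all genes it was between -0.04 and 0.01. Scaled by total count only, 18 members were called lower and 0 higher, against 20.4% and 3.17% of all genes, with medians of -0.79 over the members and -0.42 over all genes.

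**Figure D2:**
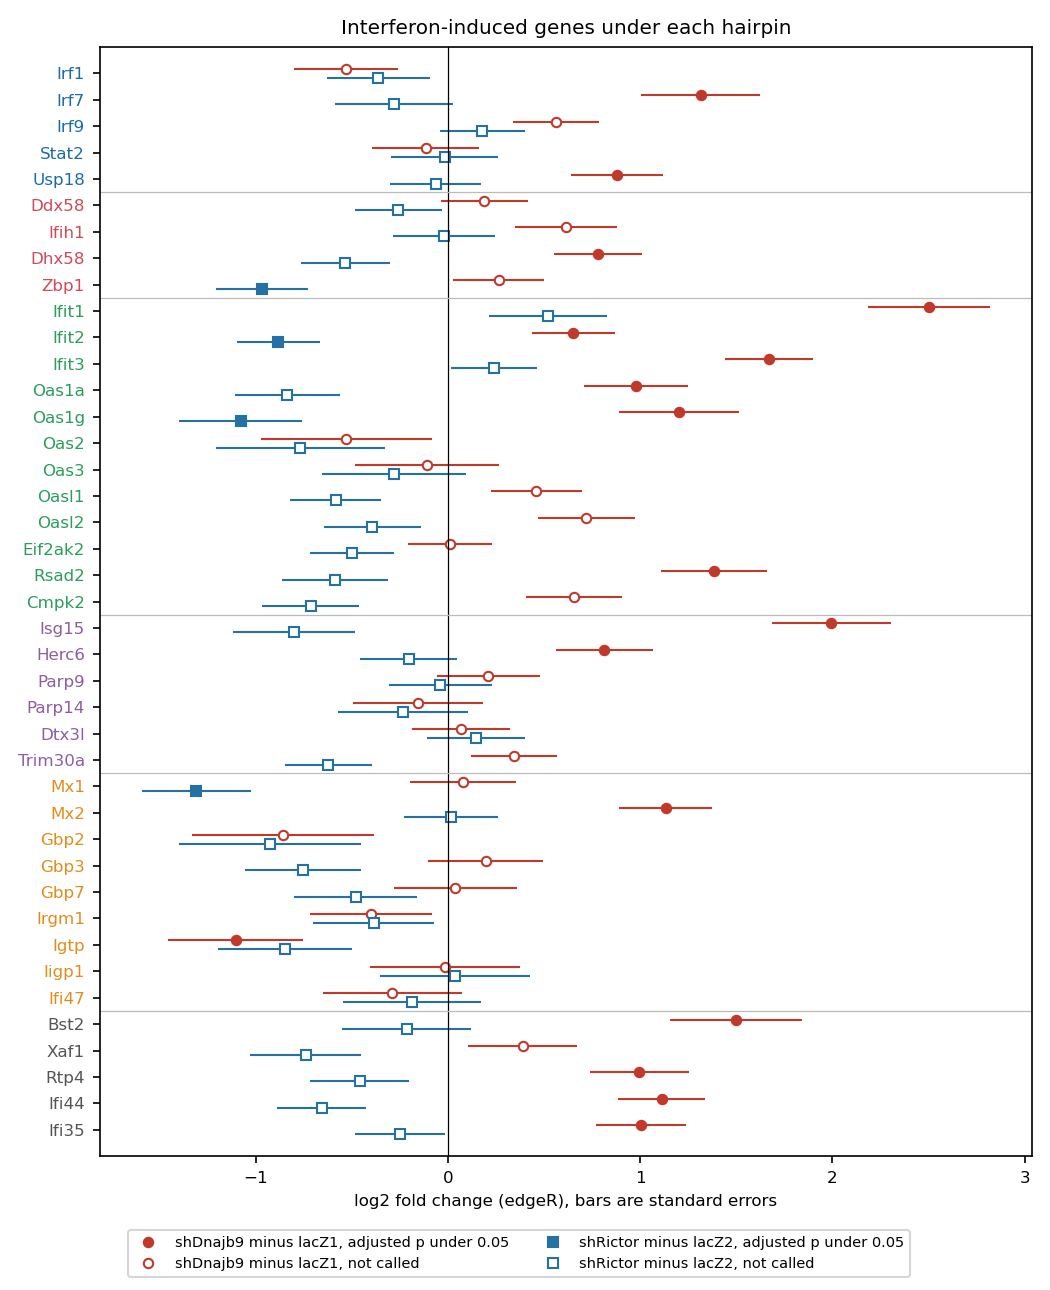
The log2 fold change of each member (x axis) with its standard error, for shDnajb9 minus lacZ1 (red circles) above shRictor minus lacZ2 (blue squares); filled symbols are called, gene names are coloured by role. The filled red symbols are 16 members on the right and Igtp on the left, and the filled blue symbols are 4 members on the left.

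The regulators of the response did not move as a block. Irf7, the transcription factor that amplifies type I interferon production, had 473 and 436 CPM in shDnajb9, 188 and 177 CPM in lacZ1, 122 and 191 CPM in shRictor and 220 and 160 CPM in lacZ2. Both shDnajb9 libraries stood far above every other library, while shRictor and lacZ2 overlapped. Irf7 was 2.49-fold higher in shDnajb9 (log2 fold change 1.32, SE 0.310, adjusted p = 0.00981, edgeR), a call not kept when either lacZ1 library was left out, with values between 0.88 and 1.37 over the alternatives. In shRictor its log2 fold change was -0.28 (adjusted p = 0.579).

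Usp18, the protease that removes Isg15 from proteins and blocks signalling at Ifnar2, had 103 and 75.2 CPM in shDnajb9 and 44.9 and 51.6 CPM in lacZ1. These groups did not overlap, and the log2 fold change was 0.88 (SE 0.238, adjusted p = 0.0192, edgeR); the call was not kept without shDnajb9 replicate 1 or without either lacZ1 library. Usp18 had 45.1 and 46.4 CPM in shRictor, between the 42.9 and 52.6 CPM of lacZ2.

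The members that carry the signal itself were not called. Irf9, the DNA-binding subunit of its complex with Stat2, had 111 and 91.0 CPM in shDnajb9 and 72.1 and 64.6 CPM in lacZ1 (log2 fold change 0.56, SE 0.224, adjusted p = 0.0821, edgeR). Stat2, its partner, had 67.1 and 89.4 CPM in shDnajb9 and 102 and 67.9 CPM in lacZ1, which overlapped. Irf1, the factor through which type II interferon drives its later targets, lay below lacZ1 in both shDnajb9 libraries, with 54.1 and 81.5 CPM against 98.5 and 97.9 CPM in lacZ1 (log2 fold change -0.53, adjusted p = 0.161). In shRictor the log2 fold changes of these 3 genes were between -0.36 and 0.18, and none was called.

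The 4 nucleic acid sensors were all at a positive log2 fold change in shDnajb9, between 0.19 and 0.78. Of these, 1 was called higher, against 11.6% of all genes tested. Dhx58, which encodes the RIG-I-like receptor LGP2, had 64.4 and 52.1 CPM in shDnajb9, 36.0 and 31.6 CPM in lacZ1, 22.3 and 27.0 CPM in shRictor and 37.0 and 34.5 CPM in lacZ2. It thus lay above its controls in shDnajb9 and below them in shRictor, called only in shDnajb9 (log2 fold change 0.78, adjusted p = 0.0276; in shRictor -0.53, adjusted p = 0.13, edgeR). The call was lost without shDnajb9 replicate 1 or either lacZ1 library, with values between 0.34 and 0.93 over the alternatives. Ifih1, which encodes the double-stranded RNA receptor MDA5, had 177 and 164 CPM in shDnajb9 and 104 and 119 CPM in lacZ1 (adjusted p = 0.106, edgeR). Ddx58, which encodes RIG-I, had 79.7 and 87.5 CPM in shDnajb9 and 76.1 and 70.5 CPM in lacZ1 (log2 fold change 0.19).

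Zbp1, the sensor of Z-form nucleic acid that can start necroptosis, was the sensor called in shRictor. It had 26.0 and 26.9 CPM in shRictor and 61.1 and 42.5 CPM in lacZ2, and was called lower (log2 fold change -0.97, SE 0.239, adjusted p = 0.0145, edgeR). The call was not kept without lacZ2 replicate 1 or without either shRictor library. In shDnajb9 Zbp1 had 55.6 and 51.0 CPM, just above the 46.5 and 42.2 CPM of lacZ1.

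Of the 12 effectors that act on RNA and translation, 6 were called higher in shDnajb9 and none lower, with a median log2 fold change of 0.69. The shares of all genes tested were 11.6% and 12.6%. In shRictor 2 were called lower and none higher, with a median of -0.59. The shares of all genes there were 10.9% and 7.31%, so the count called lower was near the background. Ifit1, which binds viral RNA that lacks methylation of its cap, had 204 and 113 CPM in shDnajb9 and 24.2 and 31.7 CPM in lacZ1, so the lowest shDnajb9 value was well above the highest control. It was 5.66-fold higher in shDnajb9 (log2 fold change 2.50, SE 0.317, adjusted p = 0.000245, edgeR), the largest fold change of the 41 members.

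Ifit1 also stood above its controls in shRictor, with 53.1 and 35.4 CPM against 30.5 and 31.1 CPM in lacZ2 (log2 fold change 0.52, adjusted p = 0.27, edgeR). Ifit3, whose human counterpart steadies IFIT1 on RNA, had 95.0 and 102 CPM in shDnajb9 and 30.3 and 31.7 CPM in lacZ1, a 3.18-fold higher level (log2 fold change 1.67, SE 0.228, adjusted p = 0.000382, edgeR). In shRictor it had 40.7 and 42.2 CPM, and in lacZ2 30.5 and 39.6 CPM. Ifit3 is uncertain as a single gene, since 51.2% of its 50-base stretches also occur in Ifit3b.

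Ifit2 departed from its relatives. It had 39.4 and 42.8 CPM in shDnajb9, 25.5 and 26.8 CPM in lacZ1, 17.5 and 19.5 CPM in shRictor and 33.6 and 34.6 CPM in lacZ2. The 4 groups did not overlap, with shDnajb9 highest and shRictor lowest. It was called higher in shDnajb9 (log2 fold change 0.65, adjusted p = 0.0435) and lower in shRictor (log2 fold change -0.88, adjusted p = 0.0144, edgeR). The call in shDnajb9 was kept in 3 of 17 alternatives and was lost without any 1 of the 8 libraries, with values between 0.24 and 0.71; that in shRictor was kept in 13, and lost without either lacZ2 or either shRictor library, with values between -1.29 and -0.81.

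The 2′-5′ oligoadenylate synthetases, which make the activator of RNase L, differed by transcript, with exon lengths of 2340 bases in Oas1g, 1885 in Oas1a, 4451 in Oas2 and 7069 in Oas3. Oas1g had 32.3 and 28.0 CPM in shDnajb9, 13.1 and 13.0 CPM in lacZ1, 6.59 and 10.3 CPM in shRictor and 23.6 and 12.4 CPM in lacZ2. It was called higher in shDnajb9 (log2 fold change 1.20, SE 0.313, adjusted p = 0.0161) and lower in shRictor (log2 fold change -1.08, SE 0.321, adjusted p = 0.0337, edgeR). The call in shRictor was not kept without lacZ2 replicate 1, the higher of its controls, or without shRictor replicate 1; that in shDnajb9 was not kept without shDnajb9 replicate 1 or without either lacZ1 library.

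Oas1a had the same order of groups, with 57.2 and 40.5 CPM in shDnajb9, 27.0 and 22.3 CPM in lacZ1, 13.4 and 19.7 CPM in shRictor and 33.0 and 26.2 CPM in lacZ2. It was called in shDnajb9 (log2 fold change 0.98, adjusted p = 0.0208) and not in shRictor (log2 fold change -0.84, adjusted p = 0.0501, edgeR). Its call was lost without shDnajb9 replicate 1, without either lacZ1 library and with total count only. It was also lost with the trend of fold change on exon length taken out, with values between 0.53 and 1.21 over the alternatives. Reads of these neighbours can be confused, since 57.6% of the 50-base stretches of Oas1a occur in Oas1g and 45.2% of those of Oas1g in Oas1a. Their shared direction therefore does not count as evidence from separate genes.

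Oas2 and Oas3 were not called. Oas2 had 6.498 and 17.4 CPM in shDnajb9 and 20.8 and 14.7 CPM in lacZ1, and Oas3 had 17.8 and 42.1 CPM in shDnajb9 and 38.4 and 27.1 CPM in lacZ1. In both genes shDnajb9 replicate 1 was the lowest of these 4 libraries, and the groups overlapped. The synthetase-like genes Oasl1 and Oasl2 had log2 fold changes of 0.46 and 0.72 in shDnajb9 (adjusted p = 0.168 and 0.0534, edgeR), and -0.58 and -0.39 in shRictor, none called.

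Rsad2, which encodes viperin, a radical SAM enzyme that makes a chain-terminating nucleotide, had 188 and 105 CPM in shDnajb9, 52.8 and 59.3 CPM in lacZ1, 36.4 and 38.9 CPM in shRictor and 58.0 and 55.1 CPM in lacZ2. It was 2.61-fold higher in shDnajb9 (log2 fold change 1.39, SE 0.275, adjusted p = 0.004, edgeR), a call kept in 16 of 17 alternatives and lost without lacZ1 replicate 1. In shRictor its pair lay below the lacZ2 pair, without a call (log2 fold change -0.59, adjusted p = 0.162). Cmpk2, the neighbouring nucleotide kinase gene that supplies viperin's substrate, had 70.4 and 45.3 CPM in shDnajb9 and 33.7 and 39.5 CPM in lacZ1. It had 25.4 and 23.7 CPM in shRictor and 38.5 and 42.0 CPM in lacZ2. It took the same sides of its controls as Rsad2 and was called in neither contrast (adjusted p = 0.0722 in shDnajb9 and 0.0678 in shRictor, edgeR).

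Eif2ak2, which encodes the kinase PKR that halts translation on double-stranded RNA, showed no such shift in shDnajb9. It had 40.7 and 43.3 CPM in shDnajb9 and 42.4 and 40.9 CPM in lacZ1, a log2 fold change of 0.01 with SE 0.218. In shRictor it had 29.1 and 33.8 CPM, below the 41.9 and 47.0 CPM of lacZ2 (log2 fold change -0.50, adjusted p = 0.133, edgeR).

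Among the 6 members of the ubiquitin-like and ADP-ribosylation systems, Isg15 and Herc6 were called higher in shDnajb9 and no other. The share of all genes called higher was 11.6%. Isg15, the ubiquitin-like modifier that is conjugated to new proteins in infected cells, had 56.6 and 35.1 CPM in shDnajb9, 11.6 and 11.2 CPM in lacZ1, 7.77 and 8.22 CPM in shRictor and 17.9 and 10.2 CPM in lacZ2. The shDnajb9 libraries were the highest of the 8 and the shRictor libraries the lowest. Isg15 was 3.99-fold higher in shDnajb9 (log2 fold change 2.00, SE 0.310, adjusted p = 0.000912, edgeR). In shRictor its log2 fold change was -0.80 (SE 0.318, adjusted p = 0.102).

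Herc6, the mouse ligase that joins Isg15 to its targets, had 88.5 and 76.3 CPM in shDnajb9 and 44.9 and 48.8 CPM in lacZ1 (log2 fold change 0.81, adjusted p = 0.034, edgeR), a call lost without shDnajb9 replicate 1 or either lacZ1 library, at 0.38 to 1.09. Its shRictor values, 42.4 and 41.2 CPM, fell between the 36.9 and 59.2 CPM of lacZ2. Parp9, Parp14 and Dtx3l, which work together in ADP-ribosylation of proteins, had log2 fold changes between -0.15 and 0.21 in shDnajb9 and between -0.23 and 0.15 in shRictor, none called. Parp9 and Dtx3l lie head to head with 458 shared exonic bases on opposite strands, and without a stated strand setting their reads cannot be separated there. Trim30a, a ubiquitin ligase that restrains inflammatory signalling, lay above lacZ1 in shDnajb9 and below lacZ2 in shRictor, at log2 fold changes of 0.34 and -0.62 (adjusted p = 0.269 and 0.0738, edgeR).

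Of the 9 GTPases, 1 was called higher and 1 lower in shDnajb9, close to the shares of 11.6% and 12.6% over all genes, with a median log2 fold change of -0.01. In shRictor 1 was called lower, against 10.9% of all genes, with a median of -0.48. Whether they differ as a group from the RNA effectors was not tested. Mx2, a dynamin-like antiviral GTPase, had 28.5 and 33.3 CPM in shDnajb9, 12.6 and 15.7 CPM in lacZ1, 13.0 and 13.2 CPM in shRictor and 14.4 and 11.5 CPM in lacZ2. The shDnajb9 libraries stood above the other 6, which lay close together. Mx2 was 2.19-fold higher in shDnajb9 (log2 fold change 1.13, SE 0.242, adjusted p = 0.00581), and its log2 fold change in shRictor was 0.02 (SE 0.245, edgeR). Among single libraries left out, its call was lost without lacZ1 replicate 1, at 0.72 to 1.29 over the alternatives.

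Mx1, its neighbour on chromosome 16, was called in the other contrast only. It had 15.5 and 28.2 CPM in shDnajb9, on either side of the 21.01 and 20.99 CPM of lacZ1, and 8.83 and 10.6 CPM in shRictor against 23.6 and 24.5 CPM in lacZ2. It was 2.48-fold lower in shRictor (log2 fold change -1.31, SE 0.283, adjusted p = 0.00693, edgeR), the lowest value of the 41 members, and the call was lost only without shRictor replicate 1 among the 17 alternatives. C57BL/6 mice carry defective alleles of both genes, so these are transcript levels only. The 50-base stretches shared with the other gene made up 3.86% of Mx1 and 4.38% of Mx2.

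The guanylate-binding proteins and immunity-related GTPases, which attack the vacuoles of intracellular microbes and are typical targets of type II interferon, included the only member called lower in shDnajb9. Igtp, which encodes Irgm3, had 109 and 149 CPM in shDnajb9, 280 and 274 CPM in lacZ1, 146 and 136 CPM in shRictor and 158 and 349 CPM in lacZ2. It lay below its controls under both hairpins, called in shDnajb9 (2.15-fold lower, log2 fold change -1.10, SE 0.352, adjusted p = 0.0376) and not in shRictor (log2 fold change -0.85, SE 0.349, adjusted p = 0.114, edgeR). The call was kept in 11 of 17 alternatives, not without shDnajb9 replicate 1, either lacZ1 library or either shRictor library, with values between -1.51 and -0.90. Igtp shares 162 exonic bases with Irgm2 on the same strand and 11.8% of its 50-base stretches.

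The other 6 of this family were not called under either hairpin. Gbp2 had 31.4 and 60.9 CPM in shDnajb9 and 78.5 and 89.9 CPM in lacZ1. It had 55.6 and 26.0 CPM in shRictor and 38.4 and 116 CPM in lacZ2. Irgm1, which guards self membranes, had log2 fold changes of -0.40 and -0.39 in shDnajb9 and shRictor. Gbp3, Gbp7, Ifi47 and Iigp1 had values between -0.29 and 0.20 in shDnajb9 and between -0.75 and 0.04 in shRictor.

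These GTPases varied together between libraries of 1 group. All 7 were higher in lacZ2 replicate 2 than in lacZ2 replicate 1, by 1.77-fold (Iigp1) to 3.02-fold (Gbp2), whereas among the other 34 members 18 were higher in replicate 2 and 16 in replicate 1. In shDnajb9 all 7 were higher in replicate 2, by 1.18-fold to 1.94-fold, and of the other 34 members 16 were higher there and 18 in replicate 1. In lacZ1 the ratio of replicate 2 to replicate 1 of the 7 stayed between 0.87 and 1.18. In shRictor 6 of the 7 were higher in replicate 1, with ratios of replicate 2 to replicate 1 between 0.47 and 1.17. Of the other 34 members 29 were higher in shRictor replicate 2 and 5 in replicate 1. These counts were not set against all genes. Without lacZ2 replicate 1 the members called lower in shRictor were Mx1, Gbp3 and Igtp. The spread within lacZ2 and within shRictor thus bears on every value of this family in that contrast. Iigp1, a GTPase of the parasite vacuole, had 687 and 837 CPM in shDnajb9, 713 and 827 CPM in lacZ1, 928 and 535 CPM in shRictor and 513 and 910 CPM in lacZ2, all overlapping.

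**Figure D3:**
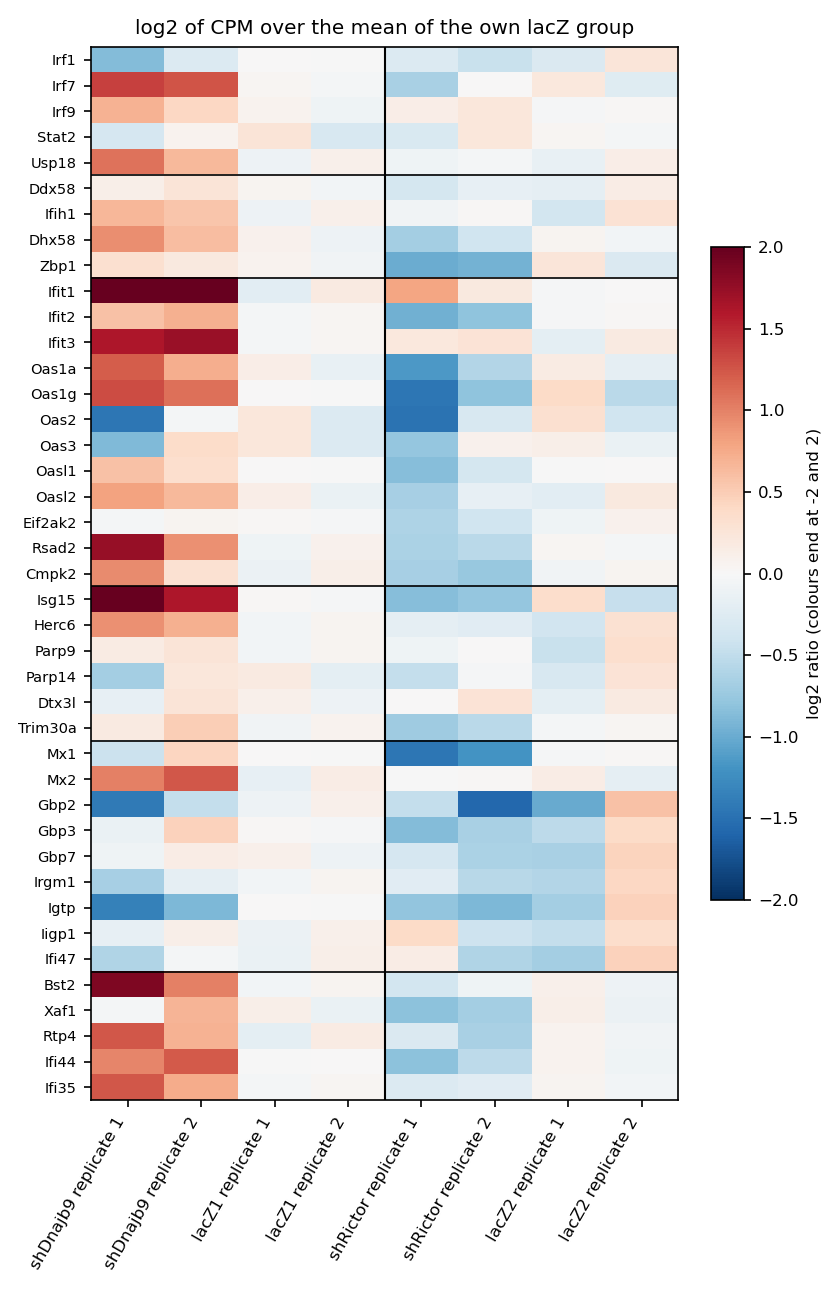
The log2 ratio of CPM in each library to the mean of its own lacZ group, for the 41 members in order of role (rows) and the 8 libraries (columns); red is above and blue below the control mean. The RNA effectors are red in both shDnajb9 columns for Ifit1, Ifit3, Rsad2 and Oas1g, and the GTPases from Gbp2 down to Ifi47 are blue in lacZ2 replicate 1 and red in lacZ2 replicate 2.

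Of the remaining 5 members, 4 were called higher in shDnajb9, against 11.6% of all genes tested. Bst2, which encodes tetherin, the membrane protein that holds budding virions at the cell surface, had 981 and 541 CPM in shDnajb9, 260 and 278 CPM in lacZ1, 217 and 264 CPM in shRictor and 298 and 260 CPM in lacZ2. The shDnajb9 libraries were the highest and also the farthest apart. Bst2 was 2.83-fold higher in shDnajb9 (log2 fold change 1.50, SE 0.343, adjusted p = 0.00837, edgeR), a call lost without shDnajb9 replicate 1 or either lacZ1 library, with values between 1.01 and 1.87.

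Ifi44, a cytoplasmic protein of the response, had 40.3 and 47.6 CPM in shDnajb9, 20.2 and 20.5 CPM in lacZ1, 12.5 and 15.4 CPM in shRictor and 23.1 and 20.8 CPM in lacZ2. It was called higher in shDnajb9 (log2 fold change 1.11, SE 0.228, adjusted p = 0.00477) and lay below lacZ2 in both shRictor libraries without a call (log2 fold change -0.66, adjusted p = 0.0673, edgeR). Rtp4, a chaperone of membrane receptors, and Ifi35, a leucine-zipper protein, had log2 fold changes of 1.00 and 1.01 in shDnajb9 (adjusted p = 0.0158 and 0.00933, edgeR) and of -0.46 and -0.25 in shRictor. Without lacZ1 replicate 1 the calls of Ifi44, Rtp4 and Ifi35 were lost, and without shDnajb9 replicate 1 those of Rtp4 and Ifi35, the values staying between 0.55 and 1.28 over all alternatives. All 3 stood above both lacZ1 libraries in shDnajb9 and below both lacZ2 libraries in shRictor. Xaf1, an antagonist of the apoptosis inhibitor XIAP, was among the least abundant members, with 9.85 and 16.2 CPM in shDnajb9, 10.99 and 9.18 CPM in lacZ1, 6.48 and 7.14 CPM in shRictor and 12.3 and 10.5 CPM in lacZ2, and was not called.

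**Figure D4:**
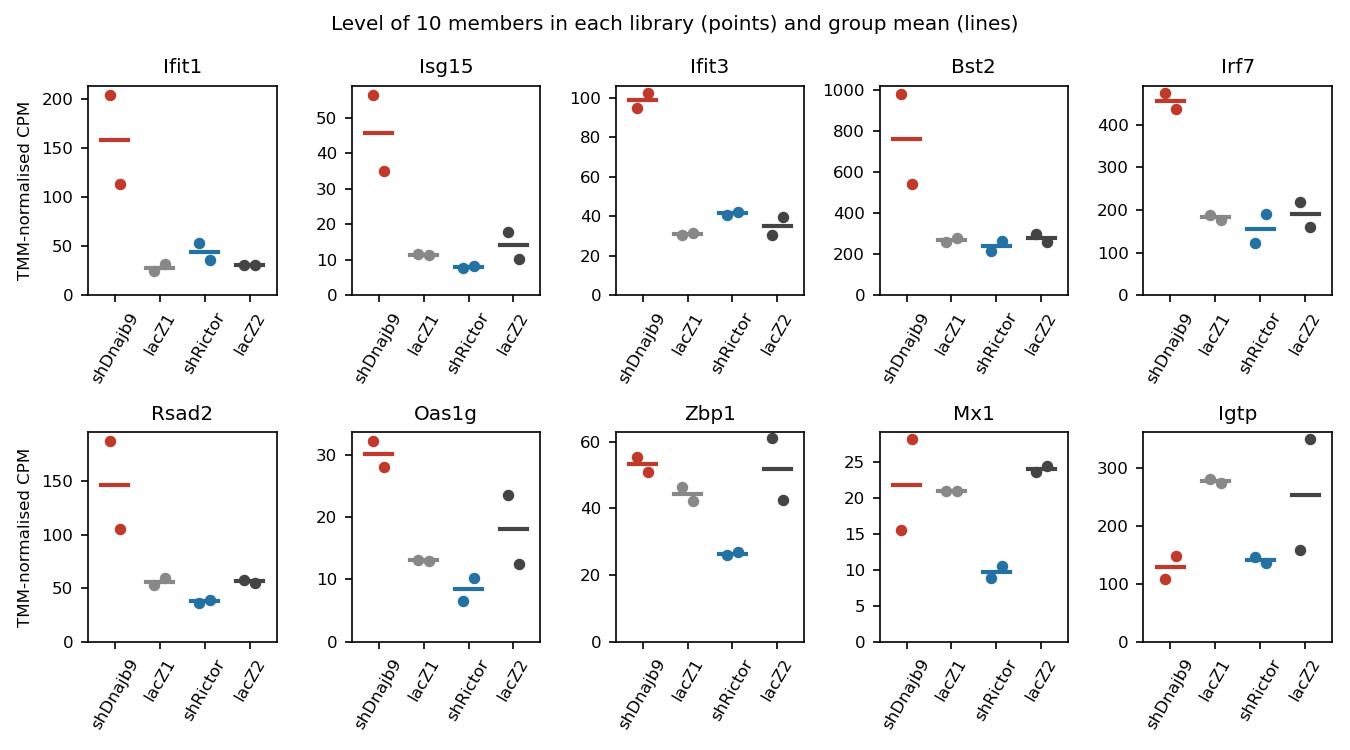
TMM-normalised CPM (y axis, from 0) of 10 members in each library (points) with the group mean (line), for shDnajb9, lacZ1, shRictor and lacZ2 from left to right. Ifit1, Isg15, Ifit3, Bst2, Irf7 and Rsad2 are highest in both shDnajb9 libraries, Zbp1 and Mx1 are lowest in both shRictor libraries, and Igtp is below lacZ1 in shDnajb9.

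On a scale per length, Bst2 was the most abundant member in every group, at 843 RPKM in shDnajb9, 298 RPKM in lacZ1, 266 RPKM in shRictor and 309 RPKM in lacZ2. RPKM is the group mean of CPM per kilobase of exon. Iigp1 and Igtp came next in the lacZ groups, at 132 and 137 RPKM in lacZ1 and 122 and 125 RPKM in lacZ2, and did not differ beyond the spread of the libraries. In shDnajb9 Iigp1 had 131 RPKM and Irf7 120 RPKM, and Isg15 had 60.6 RPKM there against 15.1 RPKM in lacZ1. Oas2 was the lowest in shDnajb9, at 2.68 RPKM, and Xaf1 in the other groups, at 2.15 RPKM in lacZ1, 1.45 RPKM in shRictor and 2.43 RPKM in lacZ2.

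Set side by side, the contrasts have separate controls and pointed opposite ways for most members. A positive log2 fold change in shDnajb9 with a negative one in shRictor was found in 26 of 41 members, against 13.3% of all genes tested. Both were positive in 5 members, against 34.6% of all genes, both negative in 9, against 37.8%, and 1 was negative in shDnajb9 and positive in shRictor, against 14.3%. Both shDnajb9 libraries above both lacZ1 libraries together with both shRictor libraries below both lacZ2 libraries held for 13 members, against 1.96% of all genes: Dhx58, Zbp1, Ifit2, Oas1a, Oas1g, Oasl1, Rsad2, Cmpk2, Isg15, Trim30a, Rtp4, Ifi44 and Ifi35. Irf9, Ifit1 and Ifit3 lay above their controls under both hairpins, a pattern of 19% of all genes. Igtp lay below under both, a pattern of 20.7% of all genes, and 0 members had the last combination, which 1.77% of genes showed. Across the 41 members the 2 sets of log2 fold changes had a Pearson r of 0.25 and a Spearman rho of 0.12, and across all 13767 genes 0.74 and 0.65. These are descriptions across genes of the same 8 libraries, and genes are not independent replicates.

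**Figure D5:**
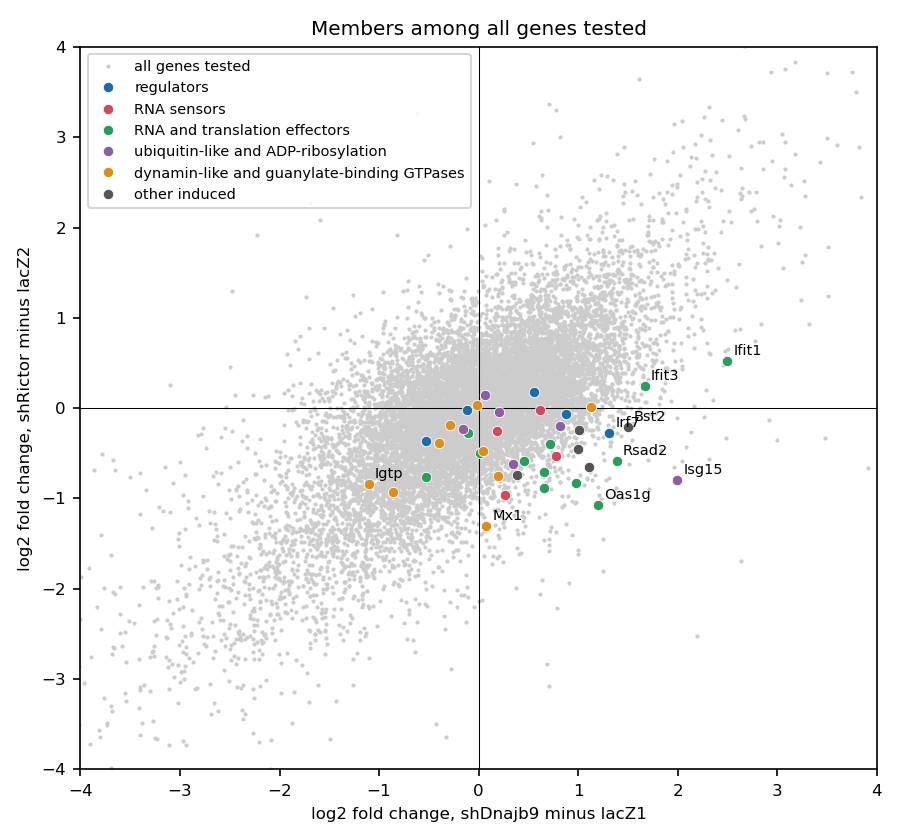
The log2 fold change of each gene in shDnajb9 against lacZ1 (x axis) and in shRictor against lacZ2 (y axis), for all genes tested (grey) and the members coloured by role; both axes end at -4 and 4, and 117 genes lie outside. The grey cloud runs along the rising diagonal, and 26 of 41 members lie to the right of 0 and below it.

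The difference itself, the shRictor effect minus the shDnajb9 effect, had a median log2 value of -1.02 over the members and -0.01 over all genes. The edgeR test called 0 members at an adjusted p under 0.05, where 0.00726% of all genes (1 of 13767) were called. At an unadjusted p under 0.05, 24 of the 41 members passed, all with the lower value in shRictor, against 10.9% of all genes. DESeq2 called 9 members, all lower in shRictor, among 45 genes in all, and edgeR without the low-count filter called 14 among 395. The largest differences were those of Isg15 (-2.79, SE 0.443, unadjusted p = 2.7e-05, adjusted p = 0.122), Oas1g (-2.28, SE 0.448, adjusted p = 0.163), Ifit1 (-1.98, SE 0.432, adjusted p = 0.226) and Rsad2 (-1.97, SE 0.388, adjusted p = 0.163, edgeR). A call of a difference thus depended on the tool, the filter, the replicate block and the libraries kept, and it fails in the main edgeR test. A difference between the hairpins also cannot be told apart from that of age between the contrasts.

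Among the other genes of the pathway few were called higher, and the lower calls were near the background. Of 34 ligands, receptors and signalling components, 27 were tested. In shDnajb9 1 was called higher and 3 lower, against 11.6% and 12.6% of all genes tested. In shRictor 1 was called higher and 4 lower, against 7.31% and 10.9%. Their median log2 fold change was -0.40 in shDnajb9, where 11 of 27 were positive, and -0.33 in shRictor, where 20 of 27 were negative, against 51.2% of all genes. The median in shDnajb9 was thus of the opposite sign to the 0.46 of the members, and that in shRictor near their -0.39; neither list was tested against the other. The interferon genes Ifna1, Ifna2, Ifna4, Ifnl2 and Ifnl3 had 0 counts in all 8 libraries, Ifnb1 had 1 count in lacZ2 replicate 2 and 0 in the others, and Ifng had 0 and 4 counts in shDnajb9, 8 and 0 in lacZ1, 4 and 0 in shRictor and 1 and 5 in lacZ2. At this depth no level of an interferon transcript could be set against the members.

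Of the receptors, Ifnar1 had log2 fold changes of 0.40 in shDnajb9 and 0.22 in shRictor, and Ifnar2 of 0.24 and 0.10, none called. Ifngr2 had log2 fold changes of 0.50 in shDnajb9 and -0.45 in shRictor (adjusted p = 0.25 and 0.358, edgeR), with overlapping groups in both contrasts. Ifngr1 had 34.0 and 41.8 CPM in shDnajb9, 49.8 and 62.5 CPM in lacZ1, 35.4 and 30.9 CPM in shRictor and 50.5 and 60.6 CPM in lacZ2. It lay below its controls under both hairpins, called in shRictor (log2 fold change -0.75, adjusted p = 0.0441) and not in shDnajb9 (-0.56, adjusted p = 0.0974, edgeR). Il10rb, shared by the receptors of type III interferon and interleukin 10, was called lower under both, at -0.67 in shDnajb9 and -0.70 in shRictor. Ifnlr1, the other chain of the type III receptor, had 0.21 and 0.57 CPM in shDnajb9 and 2.22 and 0.48 CPM in lacZ1. It had 0 and 0.10 CPM in shRictor against 4.89 and 1.19 CPM in lacZ2. It was called lower in shRictor (adjusted p = 0.00879, edgeR).

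Downstream, the kinase gene Jak1 had log2 fold changes of -0.47 in shDnajb9 and 0.08 in shRictor, neither called. Irf3, the factor activated by the RNA sensors, was called higher in shDnajb9 (0.91, adjusted p = 0.0211), and Irf2, a repressor of Irf1 targets, in shRictor (1.00, adjusted p = 0.0124). Irf8, a factor of myeloid cells, was called lower under both, at -0.75 in shDnajb9 and -1.04 in shRictor (adjusted p = 0.0351 and 0.00836). The endosomal DNA receptor Tlr9 was called lower in shDnajb9 (-1.37, adjusted p = 0.0237, edgeR).

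A wider list of 70 interferon-induced genes held 61 that were tested. In shDnajb9 6 were called higher and 4 lower, with a median of 0.09. The shares of all genes were 11.6% and 12.6%, so these calls were not above the background. In shRictor 3 were called higher and 9 lower, against 7.31% and 10.9% of all genes, with a median of -0.34. Of the 61, 32 were positive in shDnajb9 and 49 negative in shRictor, against 47.9% and 51.2% of all genes. The lean in shRictor was thus not limited to the 41 members. The named genes of the list were as follows. Apol9b and Apol9a, apolipoprotein L genes, were called higher in shDnajb9 at 1.67 and 1.41 (adjusted p = 0.00396 and 0.00517), and in shRictor Apol9b was called higher at 1.11 (adjusted p = 0.0321). Slfn9 was called lower under both, at -1.23 and -1.35, as was Ifi30, a lysosomal thiol reductase of antigen-presenting cells, at -1.49 and -1.36 in shDnajb9 and shRictor (edgeR). Slfn2 and Tor3a were called lower in shRictor at -1.23 and -1.0.

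Markers of some cell types moved in these livers as well. In bulk liver fewer cells of a type and less RNA per cell cannot be told apart. Of 12 hepatocyte markers, 7 were called higher in shDnajb9 and 6 in shRictor, and none lower. The shares of all genes called higher were 11.6% and 7.31%. Their summed level was 87620 and 77910 CPM in shDnajb9, 49610 and 64820 CPM in lacZ1, 75240 and 88410 CPM in shRictor and 27530 and 53830 CPM in lacZ2. Hepatocyte transcripts were thus abundant in every library, as the tissue label says.

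The list of 14 names of Kupffer cell markers held an old and a new name of the same gene. Of these names 13 were in the count tables and 12 were tested, of which 2 were called lower in shDnajb9 and 4 in shRictor. The shares of all genes called lower were 12.6% and 10.9%, and the Kupffer count in shDnajb9 was near its share. The Kupffer sums were 1774 and 1935 CPM in shDnajb9 and 1965 and 2329 CPM in lacZ1. They were 1172 and 1339 CPM in shRictor and 2000 and 2254 CPM in lacZ2. Of 17 T and NK cell markers 15 were tested; 1 was called lower in shDnajb9 and 3 in shRictor, with sums of 40.0 and 60.6 CPM in shDnajb9, 89.4 and 73.5 CPM in lacZ1, 52.2 and 49.2 CPM in shRictor and 62.2 and 116 CPM in lacZ2. The neutrophil markers summed to 6.71 and 16.9 CPM in shDnajb9, 49.6 and 23.4 CPM in lacZ1, 15.3 and 15.6 CPM in shRictor and 34.2 and 27.6 CPM in lacZ2, with 4 and 1 of 7 tested called lower in shDnajb9 and shRictor. The dendritic and B cell markers summed to 28.1 and 32.9 CPM in shDnajb9, 74.2 and 62.4 CPM in lacZ1, 25.1 and 27.6 CPM in shRictor and 50.9 and 83.8 CPM in lacZ2. No marker of these 4 blood cell lists was higher by a call in shDnajb9 or in shRictor, and none was at 0 in all libraries. Of 10 endothelial markers 1 was called higher in shDnajb9 and 0 in shRictor, against 11.6% and 7.31% of all genes. Of 10 stellate cell markers 2 were called higher and 2 lower in shDnajb9, and 1 higher and 1 lower in shRictor. The endothelial and stellate counts were near the shares over all genes. In lacZ2 the summed T and NK cell markers were higher in replicate 2 than in replicate 1, as the GTPases were. So were the summed markers of every other cell type listed here except neutrophils. The part of cell makeup in the values of the members was not tested.

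Transcript length moved with the shDnajb9 contrast. Over all genes, the median log2 fold change in shDnajb9 was 0.34 for exon lengths up to 2000 bases, 0.10 from there to 4000 bases and -0.18 above. Members followed the same order at a higher level, with medians of 1.50, 0.56 and 0.20; called higher were 5 of 5, 8 of 16 and 3 of 20, against 23%, 14.9% and 6.71% of all genes in these classes. In shRictor the medians over all genes were -0.05, -0.06 and 0.01. With the length trend over all genes taken out, 19 members were called higher in shDnajb9 and 1 lower, against 13.3% and 12.9% of all genes, and Oas1a was no longer called. The share of reads without a unique alignment was higher in shDnajb9 as well, and its part in these values was not tested.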

How the data were processed

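The deposited tables hold raw counts per gene symbol, which the authors made with HTSeq on mm10 after cutadapt, per the submitters' processing notes; versions, aligner, annotation and strand setting are not given in the sources used here. No column of per-sample values was left unused (0). Classes of unassigned reads stayed out of library sizes and tests. The test was that of edgeR 4.0.16 under R 4.3.3 (filterByExpr, minimum count 10, TMM, robust quasi-likelihood F test) in 1 fit of 4 group means to 8 libraries, leaving 4 residual degrees of freedom; the script was tested on simulated data. An adjusted p under 0.05 (Benjamini-Hochberg, 13767 genes) was a call. Standard errors are those of log2 fold changes. Exon lengths, positions and shared 50-base stretches come from GENCODE M21, which 98.4% of entries matched, promoters from RefSeq.

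The members, the lists of signalling genes, other induced genes and cell type markers, and the tests were chosen with earlier results of these data known. Any member could be named; of the 2 pathway lists, the interferon genes, receptors, Jak1 and up to 4 genes with the smallest p per contrast were named; a result that the rule also names is not reported here. Alternatives were total count only, RLE size factors, a fit with no filter, 2 CPM in 2 libraries, DESeq2 1.42.0, only the 4 libraries compared, a replicate block, each library left out, and shDnajb9 replicate 1 with lacZ2 replicate 1 left out; removal of the exon length trend was added after seeing the data. Where a group keeps 1 library, its spread is taken from the other groups. No 2 libraries of a group agreed within counting error (chi-square over its degrees of freedom, 18.2 to 52.0).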

Additional observations from a re-analysis of the deposited data

Results flagged for a closer look

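The class of HTSeq counts without a unique alignment, which enters no comparison of genes, was larger in the hairpin groups than in their controls. It averaged 41.6% of all HTSeq counts in shDnajb9 and 23.9% in lacZ1. It averaged 29.7% in shRictor and 24.4% in lacZ2, with 2 libraries per group.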

How the results depend on the processing

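The shDnajb9 contrast called more members higher than lower in every alternative run, and no called log2 fold change changed sign. Among values called in neither fit, those of 14 members in shDnajb9 and 17 in shRictor changed sign somewhere. With total count only, 6 members were called higher and 2 lower in shDnajb9, against 4.43% and 24.4% of all genes. In shRictor 18 were called lower, against 20.4% of all genes. Without the filter, 16 members were called higher and 2 lower in shDnajb9, against 1895 and 2374 of 18534 genes. In shRictor 0 were called higher and 9 lower, against 1287 and 1904 of 18534 genes. The difference had 14 members called, among 395 genes. DESeq2 gave 9 members and 45 genes in the difference. Without shDnajb9 replicate 1 and lacZ2 replicate 1 together, 9 were higher and 0 lower in shDnajb9 (1678 genes called), and 0 genes in the difference. With the length trend removed, 3 genes were called in the difference. The cause of these changes was not tested.

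Leaving out 1 library gave 3 to 17 members higher and 0 to 2 lower in shDnajb9 (988 to 4157 genes called), 0 to 8 lower in shRictor (1062 to 2975 genes) and 0 to 3 members and 0 to 17 genes in the difference. The replicate numbers were not shown to pair the libraries: deviations of same-numbered libraries correlated at -0.30 between shDnajb9 and lacZ1 and at -0.03 between shRictor and lacZ2. With a replicate block, 15 members were called higher in shDnajb9, Ifit2 being lost, against 1559 of 13767 genes. In shRictor 4 were called lower, against 1489 of 13767 genes. In the difference 1 member (Isg15) was called, among 3 genes. With 2 libraries per group no exact permutation test can pass 0.05.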
